A study of Homo sapiens with 16 samples.

Results

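The genes described here are 10 genes of the unfolded protein response, most of them chaperones or folding enzymes of the endoplasmic reticulum (ER): DNAJB9, DNAJC3, HSPA5, HSP90B1, PDIA4, MANF, CRELD2, SDF2L1, XBP1 and HERPUD1. They were listed by function, matched by symbol to 10 of the 63677 Ensembl gene IDs in the count tables, and all 10 had enough reads to be tested. They were chosen by their scaled counts over these same lines and times as well, since the list was drawn up with earlier results of these libraries in view, so the values and calls below describe these libraries and are no independent test of the list. DNAJB9 and DNAJC3, whose induction needs XBP1 in mouse cells, are set apart as XBP1-driven, and the other 8 are given after them.

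RNA was sequenced from 2 human melanoma cell lines. UACC62R is a resistant line derived from UACC62P by 2 months of selection in 2 uM vemurafenib, a BRAF inhibitor, and was kept in that drug according to the labels of its 0 h libraries. For the treated UACC62R libraries, the sources used here do not say whether vemurafenib was present. The groups were UACC62R after 2, 6 and 24 h in 10 uM CCG-222740 and UACC62R at 0 h, then UACC62P after 2, 6 and 24 h in 10 uM CCG-222740 and UACC62P at 0 h, with 2 libraries each. CCG-222740 inhibits gene activation by the MRTF/SRF transcription pathway. The 0 h libraries are labelled as untreated and carry other culture texts than the treated ones. The treated libraries' text mentions a vehicle control, but no vehicle library was used here, so in each comparison with 0 h the compound, the vehicle, the time in culture and any difference in preparation cannot be told apart. In UACC62R, any change of vemurafenib between the 0 h and the treated libraries cannot be told apart from these either. Untreated means without CCG-222740, and between the lines at 0 h the line and vemurafenib cannot be told apart. The comparisons of 24 h with 6 h do not use the 0 h libraries. Nothing in the labels says that the 2 libraries of a group came from separate cultures, and p-values speak only for the spread among them, which may be technical. In bulk RNA, fewer cells of a kind and less RNA per cell cannot be told apart.

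In the ER, the sensors IRE1 (ERN1), PERK (EIF2AK3) and ATF6 respond to unfolded protein. IRE1 splices XBP1 mRNA so that it encodes an active transcription factor, ATF6 is cut to release one, and PERK slows translation and favours ATF4 and CHOP. Many chaperone genes carry an ER stress response element (ERSE) near the start site, which ATF6 binds together with the CCAAT-binding factor NF-Y, and the gene counts used here do not measure XBP1 splicing.

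The promoters are shown because the 10 genes fall into those with and without a full element. The split is by sequence, but the genes were chosen with their values in view, so setting it beside those values is no independent test. The 250 bases upstream of each RefSeq start site (GRCh38.p14) were searched on both strands for exact letters, and all 10 genes had a promoter entry. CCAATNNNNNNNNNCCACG (ERSE) lay in 26 of 35116 promoters, or 0.074%, and ATTGGNCCACG (ERSE-II) in 18, or 0.0513%. ERSE was found upstream of HSPA5, HSP90B1, CRELD2 and the first of 2 start sites of XBP1, not the second, and ERSE-II upstream of HERPUD1 and SDF2L1. The 6 genes are printed with 20 bases on each side of the motif, which is in capitals, read 5′ to 3′ along the gene's strand; HSP90B1 holds 2 matches.
HSPA5, chr9:125241371-125241429, minus strand: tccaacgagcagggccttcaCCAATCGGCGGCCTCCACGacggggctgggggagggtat
HSP90B1 far site, chr12:103930196-103930254, plus strand: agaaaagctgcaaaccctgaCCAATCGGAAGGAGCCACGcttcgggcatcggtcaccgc
HSP90B1 near site, chr12:103930301-103930359, plus strand: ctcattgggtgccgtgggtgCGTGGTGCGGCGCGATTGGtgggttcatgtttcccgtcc
XBP1, chr22:28800583-28800641, minus strand: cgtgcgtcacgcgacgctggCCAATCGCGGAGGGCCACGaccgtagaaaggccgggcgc
CRELD2, chr22:49918534-49918592, plus strand: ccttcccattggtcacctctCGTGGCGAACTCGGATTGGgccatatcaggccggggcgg
HERPUD1, chr16:56932005-56932055, plus strand: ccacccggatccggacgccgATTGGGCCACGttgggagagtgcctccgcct
SDF2L1, chr22:21642094-21642144, plus strand: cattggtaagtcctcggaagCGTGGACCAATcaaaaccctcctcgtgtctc

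No exact ERSE or ERSE-II was found upstream of DNAJB9, DNAJC3, PDIA4 or MANF. TGACGTGG, the XBP1-type element UPRE, lay in 0.612% of all promoters and in that of none of the 10 genes. These letters say nothing of whether a factor binds. The 190 bases before the start site are printed for these 4 genes, with the short parts CCACG and CCAAT of the element in capitals on either strand (CGTGG and ATTGG on the other). CCACG lay in 33.5% and CCAAT in 32.0% of all promoters.
DNAJB9, chr7:108569684-108569873, plus strand: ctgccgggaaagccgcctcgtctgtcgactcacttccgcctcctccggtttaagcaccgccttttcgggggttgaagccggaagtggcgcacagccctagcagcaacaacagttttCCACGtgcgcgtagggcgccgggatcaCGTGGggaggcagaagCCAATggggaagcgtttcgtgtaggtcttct
DNAJC3, chr13:95676949-95677138, plus strand: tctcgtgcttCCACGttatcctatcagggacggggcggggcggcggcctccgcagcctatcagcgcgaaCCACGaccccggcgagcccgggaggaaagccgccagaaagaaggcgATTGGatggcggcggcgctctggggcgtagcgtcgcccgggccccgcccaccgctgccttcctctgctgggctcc
PDIA4, chr7:149028491-149028680, minus strand: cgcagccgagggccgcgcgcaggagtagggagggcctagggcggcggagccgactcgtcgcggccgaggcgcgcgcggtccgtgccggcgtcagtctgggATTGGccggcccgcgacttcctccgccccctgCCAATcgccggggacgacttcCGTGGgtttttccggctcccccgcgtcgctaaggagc
MANF, chr3:51385101-51385290, plus strand: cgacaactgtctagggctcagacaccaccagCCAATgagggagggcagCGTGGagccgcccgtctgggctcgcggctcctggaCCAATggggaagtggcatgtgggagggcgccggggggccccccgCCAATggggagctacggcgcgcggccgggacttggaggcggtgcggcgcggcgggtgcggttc

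**Figure D1:**
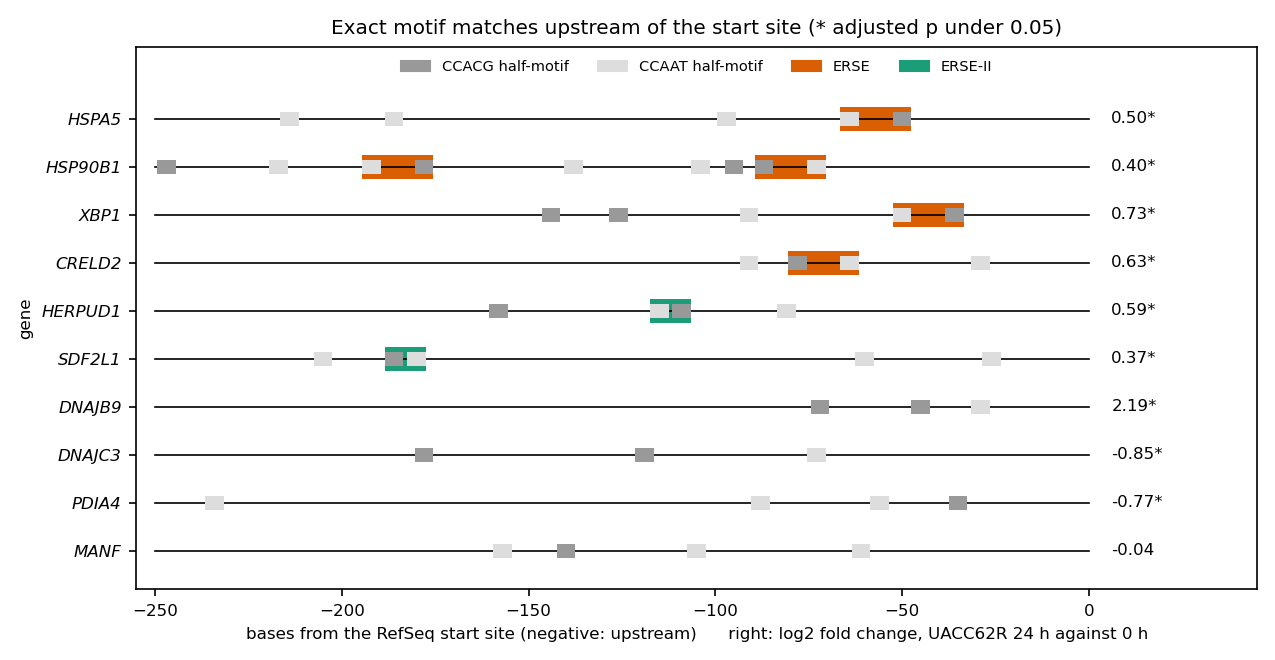
Exact matches to ERSE (orange), ERSE-II (green) and their short parts CCACG and CCAAT (dark and light grey) in the 250 bases upstream of the first RefSeq start site of each gene, with the log2 fold change of UACC62R at 24 h against 0 h at the right. The 6 genes with a full element are at the top, and their values lie between 0.37 and 0.73; the other 4 are 2.19, -0.85, -0.77 and -0.04.

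The libraries held 25.9 to 33.3 M reads in genes, and the 10 genes drew between 463 and 80680 reads in a library. Levels are CPM, reads scaled to a common library total, with edgeR's TMM factors except for the marker sums. UACC62R libraries had a sum of 71.9 to 83.2 CPM over 7 melanocyte lineage markers, against 1130 to 1390 CPM in UACC62P libraries, and 590 to 722 CPM against 31.7 to 50.5 CPM over 5 dedifferentiated melanoma markers. Epithelial, endothelial and blood cell markers summed to at most 4.72 CPM in either line, with CDH1, PECAM1, CD3E and HBB at 0 in every one of those libraries. The library labelled UACC62P 2 h replicate 1 stood apart. A scale was made over 160 genes with a large difference between the lines at 6 h. It puts UACC62P at 6 h at 0 and UACC62R at 6 h at 1. The library lay at 0.99 on this scale, with the UACC62R libraries at 0.97 to 1.01. Its melanocyte markers summed to 78.1 CPM and its dedifferentiated markers to 634 CPM. It was left out of the tests below, so that UACC62P at 2 h is 1 library, assumed to vary like the other groups, and counts of calls over all 16 libraries are given beside those over 15. For 9 of the 10 genes it lay nearer to UACC62R than to UACC62P at 0 h. The exception was DNAJC3, at 72.8 CPM in that library, against group means of 59.4 CPM in UACC62R and 67.0 CPM in UACC62P at 0 h. At 2 h DNAJC3 averaged 25.9 CPM in UACC62R and was at 35.8 CPM in the other UACC62P library. For 6 of the 10 genes the library left out lay nearer to UACC62R at 0 h than to UACC62R at 2 h. For DNAJB9, DNAJC3, XBP1 and HERPUD1 the lines were not called different at 0 h, so nearness says little of the line there. Neither count of nearness was made over all genes. The origin of this library was not tested.

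**Figure D2:**
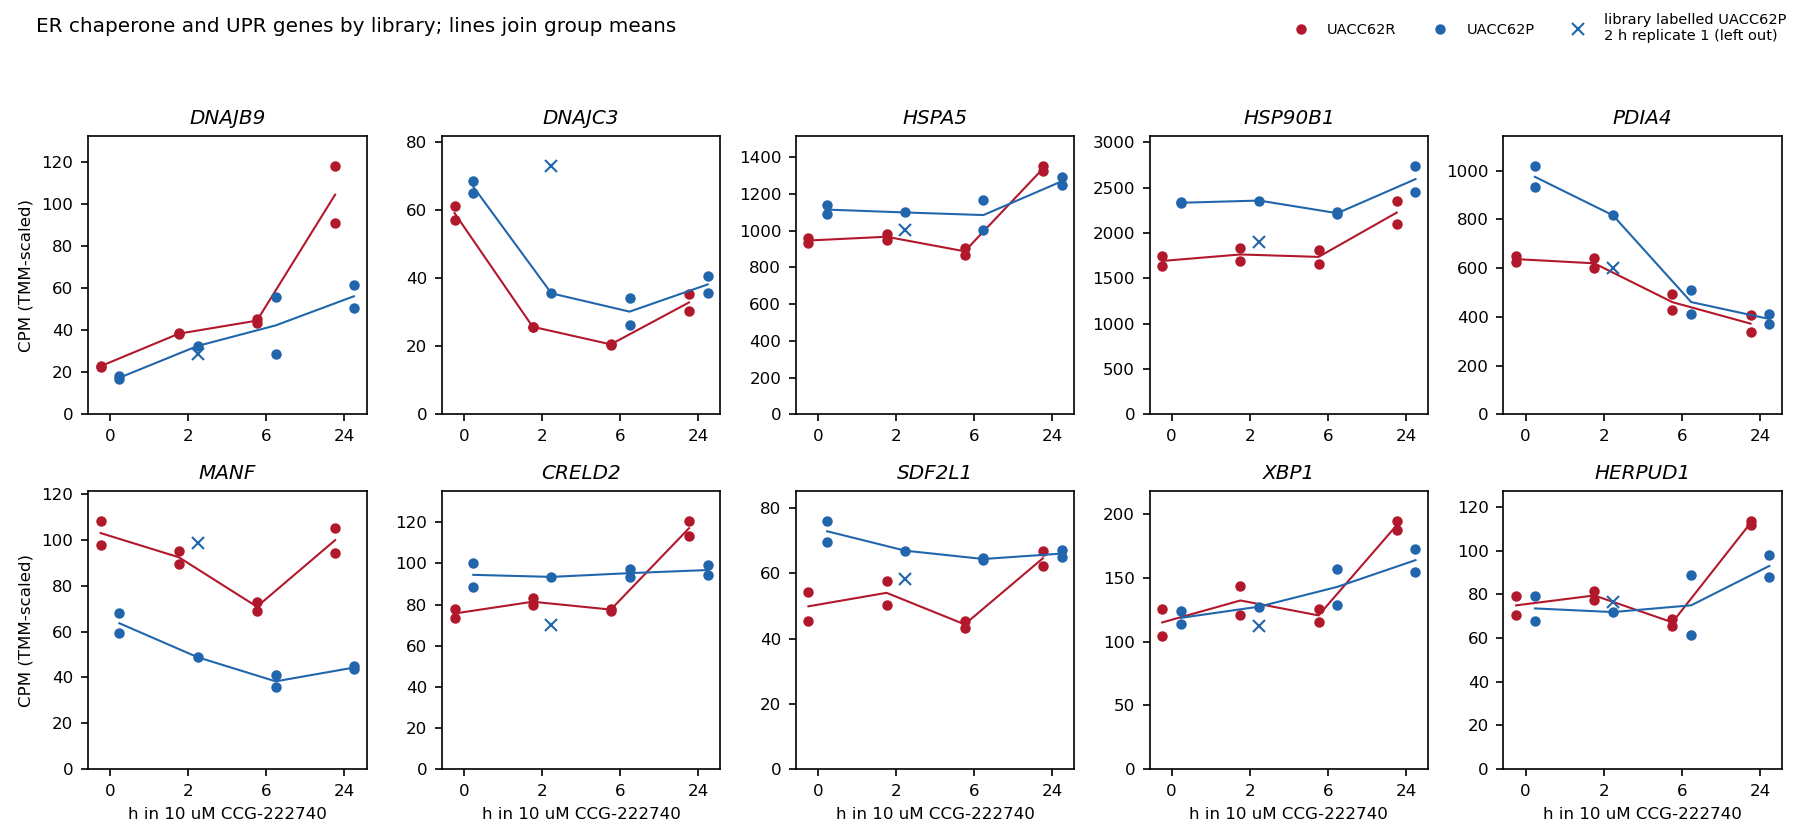
Level of each gene in every library (CPM, TMM-scaled, linear axis from 0) over the hours in CCG-222740, UACC62R in red and UACC62P in blue, with lines joining group means and a cross for the library left out. DNAJB9 is highest and DNAJC3 is above its lowest at 24 h in both lines, and HSPA5 of UACC62R lies at 868 to 983 CPM until 6 h and at 1322.1 and 1349.9 CPM at 24 h.

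In UACC62R, DNAJC3 was the 1 gene of the 10 called at 2 h. DNAJC3, also called p58IPK, is a luminal co-chaperone of HSPA5 and an inhibitor of PERK. It stood at 25.8 and 25.7 CPM at 2 h, against 57.0 and 61.2 CPM at 0 h, and fell by 1.20 ± 0.12 on the log2 scale (standard error, edgeR's quasi-likelihood test, adjusted p = 0.000644). The 2 h libraries lay far below the 0 h ones and close to each other. Of the 10 genes, 0 were called higher and 1 lower, where over all 20280 genes tested 0.0493% were higher and 0.0247% lower. Here and below, called means an adjusted p under 0.05, with the Benjamini-Hochberg correction made over every gene tested. DNAJB9, also called ERdj4, a co-chaperone that steers misfolded protein to degradation, was at 38.7 and 38.0 CPM at 2 h, against 22.7 and 23.1 CPM at 0 h. Those groups did not overlap, but the log2 fold change of 0.74 ± 0.22 missed the threshold (adjusted p = 0.821). The other 8 genes had log2 fold changes of -0.16 to 0.20. With all 16 libraries 0 of the 10 genes were called.

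At 6 h in UACC62R, DNAJC3 reached its lowest level of the series, 20.3 and 20.8 CPM, against 57.0 and 61.2 CPM at 0 h. It fell by 1.52 ± 0.12 on the log2 scale (edgeR, adjusted p = 2.0e-05). MANF, a secreted ER protein that binds HSPA5, was at 68.8 and 72.9 CPM at 6 h, against 108.3 and 97.6 CPM at 0 h. It fell by 0.54 ± 0.10 on the log2 scale (adjusted p = 0.0192). The 6 h libraries lay below the 0 h libraries for either gene. These were the calls, 0 higher and 2 lower of 10, beside 0.38% higher and 0.286% lower over all genes. With the replicate number as a block, DNAJB9 (log2 fold change 0.96) and PDIA4 (-0.47) were called too. In the fit of all 16 libraries 0 were called.

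At 24 h in UACC62R, 7 of the 10 genes were higher and 2 lower than at 0 h, with 6.48% of all genes called higher and 8.23% lower. The median log2 fold change of the 10 genes was 0.45, against 0.01 over all genes tested. Over all 16 libraries 4 were called higher and 1 lower. DNAJB9 stood at 90.8 and 117.9 CPM at 24 h, against 22.7 and 23.1 CPM at 0 h. Both 24 h libraries lay far above every other library of either line, and the gene rose by 2.19 ± 0.22 on the log2 scale, or 4.55-fold (adjusted p = 2.8e-05). DNAJC3 stood at 30.4 and 35.3 CPM at 24 h, against 57.0 and 61.2 CPM at 0 h, and fell by 0.85 ± 0.12 on the log2 scale. The 2 XBP1-driven genes thus moved in opposite directions. With the library labelled UACC62P 2 h replicate 1 in the fit, DNAJC3 was called in none of the comparisons, with adjusted p of 0.147 here and 1.0 at 2 h, while DNAJB9 was (adjusted p = 0.00411).

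HSPA5, or BiP, the main HSP70 chaperone of the ER and a brake on the stress sensors, was at 1349.9 and 1322.1 CPM at 24 h, against 957 and 935 CPM at 0 h in UACC62R. The groups were well apart, and HSPA5 rose by 0.50 ± 0.07 on the log2 scale (adjusted p = 0.000506). HSP90B1, or GRP94, the HSP90 of the ER, was at 2100.2 and 2350.4 CPM at 24 h, against 1634 and 1750 CPM at 0 h. It rose by 0.40 ± 0.08 on the log2 scale (adjusted p = 0.00432), and its 24 h libraries lay above both 0 h libraries.

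PDIA4, or ERp72, a disulfide isomerase of the ER lumen, went the other way. In UACC62R it was at 338 and 407 CPM at 24 h, against 648 and 626 CPM at 0 h, and fell by 0.77 ± 0.11 on the log2 scale (adjusted p = 0.000503). MANF was at 94.4 and 105.3 CPM at 24 h, against 108.3 and 97.6 CPM at 0 h. These groups overlapped, and its log2 fold change of -0.04 ± 0.10 was not called.

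CRELD2, a secreted protein of the ER stress response, was at 113.5 and 120.7 CPM in UACC62R at 24 h, against 73.5 and 77.8 CPM at 0 h, and rose by 0.63 ± 0.08 on the log2 scale (adjusted p = 0.000131). SDF2L1, a luminal partner of the ER DnaJ proteins, was at 62.3 and 66.8 CPM at 24 h, against 54.3 and 45.5 CPM at 0 h, and rose by 0.37 ± 0.10 (adjusted p = 0.018). The SDF2L1 groups did not overlap, but the gap was smaller than for CRELD2. XBP1, the transcription factor spliced by IRE1, was at 195.0 and 188.1 CPM at 24 h, against 104.4 and 126.0 CPM at 0 h, and rose by 0.73 ± 0.12 (adjusted p = 0.000818). HERPUD1, a membrane protein of the ER degradation complex, was at 111.8 and 113.7 CPM at 24 h, against 79.3 and 70.7 CPM at 0 h. It rose by 0.59 ± 0.14 on the log2 scale (adjusted p = 0.00929). All of the 24 h libraries lay above the 0 h libraries for XBP1 and HERPUD1. SDF2L1 lost its call without UACC62R 0 h replicate 2, or without either 24 h library, and HERPUD1 without UACC62R 0 h replicate 2.

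Set against 6 h, the 24 h libraries of UACC62R had 9 of the 10 genes higher and 0 lower, beside 5.18% higher and 7.39% lower over all genes. This comparison leaves out the 0 h libraries. DNAJB9 was at 90.8 and 117.9 CPM at 24 h, against 43.6 and 45.5 CPM at 6 h, a log2 fold change of 1.23 ± 0.21. DNAJC3 was at 30.4 and 35.3 CPM at 24 h, against 20.3 and 20.8 CPM at 6 h, and rose by 0.68 ± 0.12, so its level at 24 h was above that at 6 h and below that at 0 h. MANF was at 94.4 and 105.3 CPM at 24 h, against 68.8 and 72.9 CPM at 6 h, and rose by 0.50 ± 0.10. HERPUD1 rose by 0.75 ± 0.14, XBP1 by 0.67 ± 0.12, CRELD2 by 0.59 ± 0.08, HSPA5 by 0.59 ± 0.07, SDF2L1 by 0.54 ± 0.10 and HSP90B1 by 0.36 ± 0.08 on the log2 scale. The exception was PDIA4, at 338 and 407 CPM at 24 h, against 427 and 494 CPM at 6 h, with a log2 fold change of -0.31 ± 0.11 (adjusted p = 0.0981) that was called with the replicate block. With all 16 libraries 1 of the 10, HSPA5, was called.

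In UACC62P, 0 of the 10 genes were called at 2 h by edgeR, beside 0.0296% higher and 0.0148% lower over all genes, of which 877 had an unadjusted p under 0.05. DNAJC3 stood at 35.5 CPM in the 1 library at 2 h, against 68.6 and 65.0 CPM at 0 h, and its log2 fold change of -0.91 ± 0.15 missed the threshold (adjusted p = 0.0572). It was called with the replicate block (adjusted p = 0.000893), and DESeq2 also called 1 of the 10 genes. Over all 16 libraries edgeR called 0. DNAJB9 was at 32.5 CPM at 2 h, against 18.2 and 16.7 CPM at 0 h, with a log2 fold change of 0.90 ± 0.27 (adjusted p = 0.895).

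At 6 h in UACC62P, 1 of the 10 genes was higher and 3 were lower, beside 0.848% higher and 0.671% lower over all genes. DNAJC3 was at 26.2 and 34.1 CPM at 6 h, against 68.6 and 65.0 CPM at 0 h, and fell by 1.15 ± 0.12 on the log2 scale (edgeR, adjusted p = 0.000185). PDIA4 was at 511.5 and 410.6 CPM at 6 h, against 1018.5 and 931 CPM at 0 h, and fell by 1.08 ± 0.12 (adjusted p = 0.000251). MANF was at 35.6 and 40.9 CPM at 6 h, against 67.9 and 59.3 CPM at 0 h, and fell by 0.73 ± 0.10 (adjusted p = 0.002). For each of the 3 genes the groups were clearly apart. DNAJB9 was at 28.7 and 55.9 CPM at 6 h, against 18.2 and 16.7 CPM at 0 h, and rose by 1.27 ± 0.23 (adjusted p = 0.0114). Its 6 h libraries differed from each other more than those of any other group of UACC62P, and without UACC62P 6 h replicate 2 the value was 0.72 and not called. The call was lost as well without either UACC62P 0 h library. When all 16 libraries entered the fit, 0 of the 10 were called.

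At 24 h in UACC62P, DNAJB9 and XBP1 were higher and PDIA4, DNAJC3 and MANF lower than at 0 h, 2 and 3 of 10, beside 2.19% higher and 1.65% lower over all genes. DNAJB9 was at 50.6 and 61.6 CPM at 24 h, against 18.2 and 16.7 CPM at 0 h, and rose by 1.69 ± 0.23 on the log2 scale, or 3.22-fold (adjusted p = 0.000853). PDIA4 was at 371 and 412 CPM at 24 h, against 1018.5 and 931 CPM at 0 h, and fell by 1.32 ± 0.12 (adjusted p = 3.1e-05). The 0 h libraries of PDIA4 lay far above both. DNAJC3 was at 35.7 and 40.6 CPM at 24 h, against 68.6 and 65.0 CPM at 0 h, and fell by 0.81 ± 0.12 (adjusted p = 0.00139). MANF was at 43.5 and 45.1 CPM at 24 h, against 67.9 and 59.3 CPM at 0 h, and fell by 0.52 ± 0.10 (adjusted p = 0.00883). XBP1 was at 155.1 and 173.1 CPM at 24 h, against 123.9 and 113.7 CPM at 0 h, and rose by 0.47 ± 0.12 (adjusted p = 0.04). XBP1 lost its call when any 1 of the 4 libraries was left out, and MANF without UACC62P 0 h replicate 1 or either 24 h library. HSPA5 was at 1245.2 and 1289.6 CPM at 24 h, against 1138.5 and 1089.3 CPM at 0 h, groups that did not overlap, with an uncalled log2 fold change of 0.19 ± 0.07. HSP90B1 (0.15), HERPUD1 (0.34), CRELD2 (0.04) and SDF2L1 (-0.14) were not called either. The median of the 10 genes was 0.09, against 0.0 over all genes. With the library labelled UACC62P 2 h replicate 1 included, DNAJB9 and PDIA4 were called.

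Between 24 h and 6 h in UACC62P, 0 of the 10 genes were called by edgeR, beside 0.345% higher and 0.39% lower over all genes, of which 2554 had an unadjusted p under 0.05, and DESeq2 also called 0 of the 10. The fit of all 16 libraries called 0 as well. DNAJC3 was at 35.7 and 40.6 CPM at 24 h, against 26.2 and 34.1 CPM at 6 h, with a log2 fold change of 0.34 ± 0.12. With the replicate block DNAJC3, HSPA5 (0.23) and HSP90B1 (0.23) were called higher, beside 475 higher and 550 lower of all 20280 genes. Within a line the comparisons of 6 h and 24 h share the same 0 h or treated libraries, so their values stand side by side only.

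**Figure D3:**
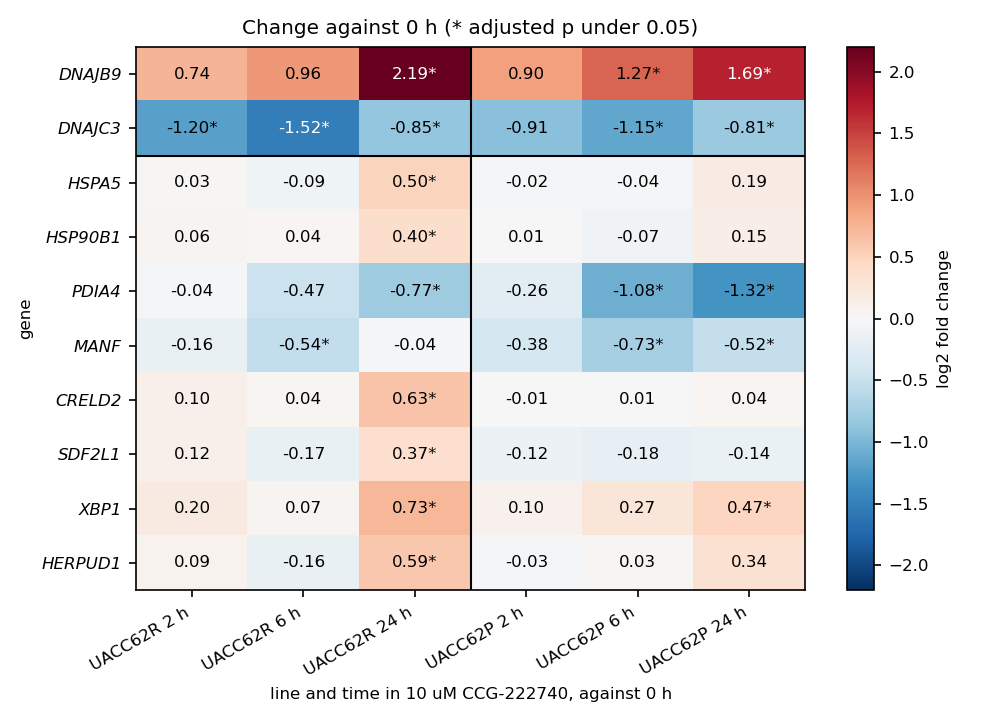
Log2 fold change of each gene against 0 h of its own line at 2, 6 and 24 h, UACC62R at the left and UACC62P at the right, with the XBP1-driven genes above the line and a star for a call (adjusted p under 0.05). DNAJB9 is positive and DNAJC3 negative in every column, while HSPA5 and 6 others of UACC62R are called higher only in the 24 h column.

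Untreated UACC62R, kept in vemurafenib, differed from untreated UACC62P in 6 of the 10 genes, 1 higher and 5 lower. Over all genes 27.8% were higher and 26.1% lower, and 10939 of 20280 were called in either direction. The total of 6 of 10 is thus near the share of all genes. Line and vemurafenib cannot be told apart here. MANF was at 108.3 and 97.6 CPM in UACC62R, against 67.9 and 59.3 CPM in UACC62P, and was higher by 0.69 ± 0.10 on the log2 scale (adjusted p = 2.7e-05). PDIA4 was at 648 and 626 CPM in UACC62R, against 1018.5 and 931 CPM in UACC62P, a log2 fold change of -0.61 ± 0.11. SDF2L1 was at 54.3 and 45.5 CPM in UACC62R, against 76.1 and 69.7 CPM in UACC62P, a log2 fold change of -0.55 ± 0.10. None of these pairs of groups overlapped. HSP90B1 was at 1634 and 1750 CPM in UACC62R, against 2340.4 and 2327 CPM in UACC62P (-0.46 ± 0.08). CRELD2 had a log2 fold change of -0.32 ± 0.08 and HSPA5 of -0.24 ± 0.07. HSPA5 lost its call without UACC62R 0 h replicate 2 or UACC62P 0 h replicate 1, and when libraries were scaled by size alone (-0.16), which moves the median of all genes at 0 h to 0.10. DNAJB9 (0.40 ± 0.23), DNAJC3 (-0.18 ± 0.12), XBP1 (-0.04 ± 0.12) and HERPUD1 (0.03 ± 0.14) were not called. With all 16 libraries 1 was higher and 3 were lower, beside 4167 higher and 3680 lower of all 19352 genes tested.

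Per kilobase of exon, the 0 h levels of these genes spanned more than an order of magnitude. HSP90B1 had 360 CPM per kb in UACC62R and 497 CPM per kb in UACC62P, HSPA5 had 242 in UACC62R and 285 in UACC62P, and PDIA4 had 194 in UACC62R and 298 in UACC62P. SDF2L1 had 45.4 CPM per kb in UACC62R and 66.3 CPM per kb in UACC62P, MANF had 43.2 in UACC62R and 26.7 in UACC62P, and XBP1 had 38.0 in UACC62R and 39.2 in UACC62P. CRELD2, HERPUD1 and DNAJC3 lay between 10.6 and 18.3 CPM per kb, and DNAJB9 was lowest at 8.08 CPM per kb in UACC62R and 6.14 CPM per kb in UACC62P. Levels within a line at 0 h thus had the same 3 genes at the top and DNAJB9 at the bottom.

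A difference of response is the change from 0 h in UACC62R minus that in UACC62P. At 2 h edgeR called 0 of the 10 genes, beside 0% higher and 0% lower over all genes, and 586 genes had an unadjusted p under 0.05. At 6 h it called 0 of 10, beside 0% higher and 0.00493% lower, with 951 genes at an unadjusted p under 0.05. DESeq2 also called 0 of the 10 at either time. At 24 h it called 1 of 10, CRELD2, beside 0.242% higher and 0.321% lower. CRELD2 was at 113.5 and 120.7 CPM in UACC62R at 24 h, against 73.5 and 77.8 CPM at 0 h, and in UACC62P at 94.5 and 99.1 CPM at 24 h, against 100.2 and 88.7 CPM at 0 h. The UACC62R groups were apart and the UACC62P groups overlapped, and the difference was 0.60 ± 0.11 on the log2 scale (adjusted p = 0.0299). The differences for PDIA4 (0.54 ± 0.16), SDF2L1 (0.52 ± 0.14), DNAJB9 (0.50 ± 0.31), MANF (0.48 ± 0.14) and HSPA5 (0.31 ± 0.10) were not called, and 9 of the 10 were positive. At 2 h, where UACC62P is 1 library, 8 of the 10 differences were positive, and at 6 h 5. The median of the 10 was 0.396 at 24 h, 0.108 at 2 h and -0.022 at 6 h. Over all genes the medians were -0.019, 0.017 and -0.003, and the share of positive differences was not counted. The genes share the same libraries, so these signs are not separate observations. With the replicate block 5 were called at 24 h, namely CRELD2, SDF2L1, MANF, PDIA4 and HSPA5. That fit called 358 higher and 464 lower of all 20280 genes. Over all 16 libraries 0 of the 10 were called at 2 h, 6 h or 24 h. The exception in sign at 24 h was DNAJC3, at -0.04 ± 0.17, and a missed threshold does not show that the lines responded alike.

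**Figure D4:**
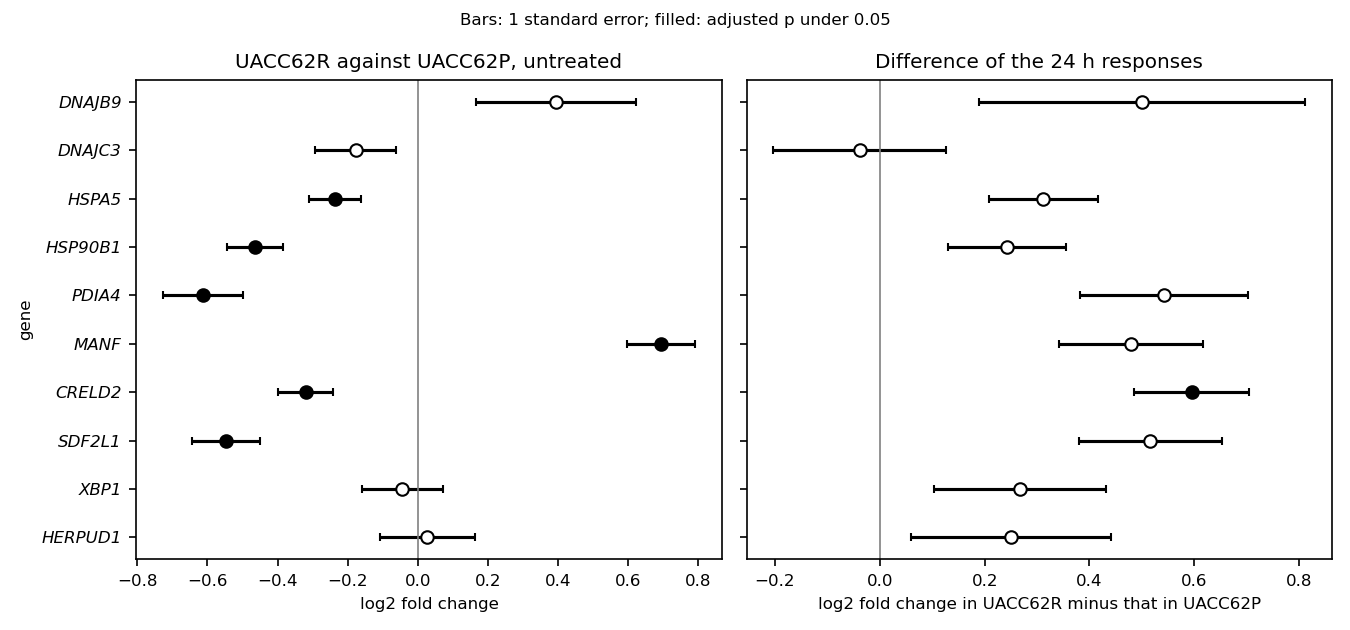
Left, log2 fold change of untreated UACC62R against untreated UACC62P for each gene; right, log2 fold change at 24 h in UACC62R minus that in UACC62P. Points are estimates, bars 1 standard error and filled points calls at an adjusted p under 0.05: MANF stands alone to the right of 0 among the calls at the left, and CRELD2, at 0.60, is the only filled point at the right.

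The 6 genes with a full element, whose sequences are printed above, were all called higher at 24 h in UACC62R, with log2 fold changes of 0.37 to 0.73. Of the 4 without one, DNAJB9 was higher, DNAJC3 and PDIA4 were lower and MANF was not called. In UACC62P at 24 h, 1 of the 6, XBP1, was called. The same elements lay upstream of 37 other genes, of which 25 were tested. These were taken after the values of the 10 genes were seen. Among the 25, HYOU1, CALR, CANX, SERP1, FICD, PDIA6 and ERO1B are also in the wider lists below, which were chosen with earlier results known. Exons of ALG12, another of the 25, overlap those of CRELD2. At 24 h in UACC62R, 6 of the 25 were called higher and 1 lower, beside 6.48% and 8.23% of all genes, with a median log2 fold change of 0.15 against 0.01 over all genes. The 6 included FICD (0.87), which modifies HSPA5, and SERP1 (0.76), which protects new membrane proteins. CANX (0.73), a lectin chaperone, and HYOU1 (0.60), an ER HSP70-like chaperone, were called higher too. These genes are in the wider lists. Outside those lists only TMEM120A (0.60) and TRIM5 (0.29) were called higher, and RUVBL2 (-0.26) was the lower one. At 24 h in UACC62P, 4 were called higher, CANX (0.59), SERP1 (0.56), ALG12 (0.42) and HYOU1 (0.29), and 1, CALR (-0.37), lower. The shares of all genes were 2.19% and 1.65%, and the median of the 25 was 0.04 against 0.0. Of the genes called in UACC62P only ALG12 is outside the wider lists. With the replicate block 10 were higher and 3 lower in UACC62R, beside 2230 higher and 2668 lower of all 20280 genes. In UACC62P the block gave 7 higher and 3 lower, beside 1224 higher and 1224 lower over all genes. Over all 16 libraries 2 were higher in UACC62R, beside 171 higher and 173 lower of 19352 genes. In UACC62P that fit called 0 of the 25, beside 20 higher and 9 lower over all genes.

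The wider pathway was read from lists of genes that were likewise chosen with earlier results known. At 24 h against 0 h, the main fit of 15 libraries called 6.48% of all genes higher and 8.23% lower in UACC62R. In UACC62P it called 2.19% higher and 1.65% lower, and the main counts of these lists stand beside those shares. The replicate block called 2230 higher and 2668 lower of all 20280 genes in UACC62R, and 1224 and 1224 in UACC62P. All 16 libraries gave 171 higher and 173 lower of 19352 genes in UACC62R, and 20 and 9 in UACC62P. List counts of those 2 fits stand beside these. Of 21 other ER chaperones and co-chaperones, 10 were higher and 2 lower in UACC62R at 24 h, with a median log2 fold change of 0.42, and 7 were higher and 3 lower in UACC62P, with a median of 0.04. Over all 16 libraries 6 were higher and 1 lower in UACC62R, and 0 higher and 1 lower in UACC62P. HSPA13, an HSP70-like protein, averaged 225.6 CPM at 24 h and 106.6 CPM at 0 h in UACC62R (1.08 ± 0.13), and 174.6 CPM at 24 h and 68.8 CPM at 0 h in UACC62P (1.34 ± 0.13). DNAJC1, an ER-membrane DnaJ protein, averaged 40.3 CPM at 24 h and 19.2 CPM at 0 h in UACC62R (1.07 ± 0.17). DNAJC10, a disulfide reductase of the degradation pathway, rose by 0.64 ± 0.08 in UACC62R and by 0.61 ± 0.08 in UACC62P, both called. CRELD1 fell by 0.67 ± 0.16 in UACC62P and was not called in UACC62R (-0.05 ± 0.15).

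Of 17 disulfide isomerases and ER oxidation genes, 5 were higher and 3 lower in UACC62R at 24 h, and 1 was higher and 3 were lower in UACC62P. The replicate block gave 7 higher and 4 lower in UACC62R and 4 higher and 3 lower in UACC62P, and all 16 libraries gave 1 higher and 1 lower in UACC62R and 0 in UACC62P. PDIA5, a disulfide isomerase, averaged 31.8 CPM at 24 h and 48.0 CPM at 0 h in UACC62R, a log2 fold change of -0.59 ± 0.10, while TMX4, a membrane thioredoxin, rose by 0.62 ± 0.08 there. TXNDC12, a small thioredoxin-like protein, averaged 70.2 CPM at 24 h and 114.3 CPM at 0 h in UACC62P, a log2 fold change of -0.70 ± 0.10. It was called lower in UACC62R as well (-0.35 ± 0.10). Of 18 genes of ER-associated degradation, 10 were higher and 0 lower in UACC62R at 24 h, and 5 were higher and 0 lower in UACC62P. The replicate block gave 12 higher and 1 lower in UACC62R and 11 higher and 0 lower in UACC62P, and all 16 libraries gave 5 higher in UACC62R and 0 in UACC62P. SELENOS, a selenoprotein of the export complex for misfolded protein, rose by 1.09 ± 0.14 in UACC62R and by 0.88 ± 0.14 in UACC62P. SYVN1, the ubiquitin ligase also called HRD1, rose by 0.96 ± 0.09 in UACC62R and by 0.77 ± 0.09 in UACC62P.

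Of 10 genes for the stress sensors and ATF6 processing, 6 were higher and 1 lower in UACC62R at 24 h, and 4 were higher and 0 lower in UACC62P. Over all 16 libraries 2 were higher in UACC62R and 0 were called in UACC62P. EIF2AK3, which encodes PERK, averaged 36.9 CPM at 24 h and 17.3 CPM at 0 h in UACC62R (1.09 ± 0.18), and 47.1 CPM at 24 h and 27.7 CPM at 0 h in UACC62P (0.77 ± 0.17). CREB3L2, an ATF6-like factor, rose by 0.61 ± 0.08 in UACC62R and by 0.48 ± 0.08 in UACC62P. Of 12 genes of the PERK-ATF4-CHOP arm, 1 was higher in UACC62R at 24 h, CEBPB at 0.92 ± 0.17, and 4 were higher in UACC62P, among them the asparagine synthetase gene ASNS (1.15 ± 0.21), the glutathione-degrading CHAC1 (1.10 ± 0.29) and NUPR1 (0.76 ± 0.19). With the replicate block 5 were higher in UACC62R and 7 in UACC62P, and over all 16 libraries 1 in UACC62R and 0 in UACC62P. The medians of this arm were 0.25 in UACC62R and 0.51 in UACC62P, and the difference of response was called by edgeR for 0 of the 12 genes, and for 1 with the replicate block. Of the 4 other genes that depend on XBP1 in mouse cells, SERP1 was the 1 called, at 0.76 ± 0.08 in UACC62R and 0.56 ± 0.08 in UACC62P. The replicate block called 2 of the 4 in UACC62P, and all 16 libraries gave 1 call in UACC62R and 0 in UACC62P.

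**Figure D5:**
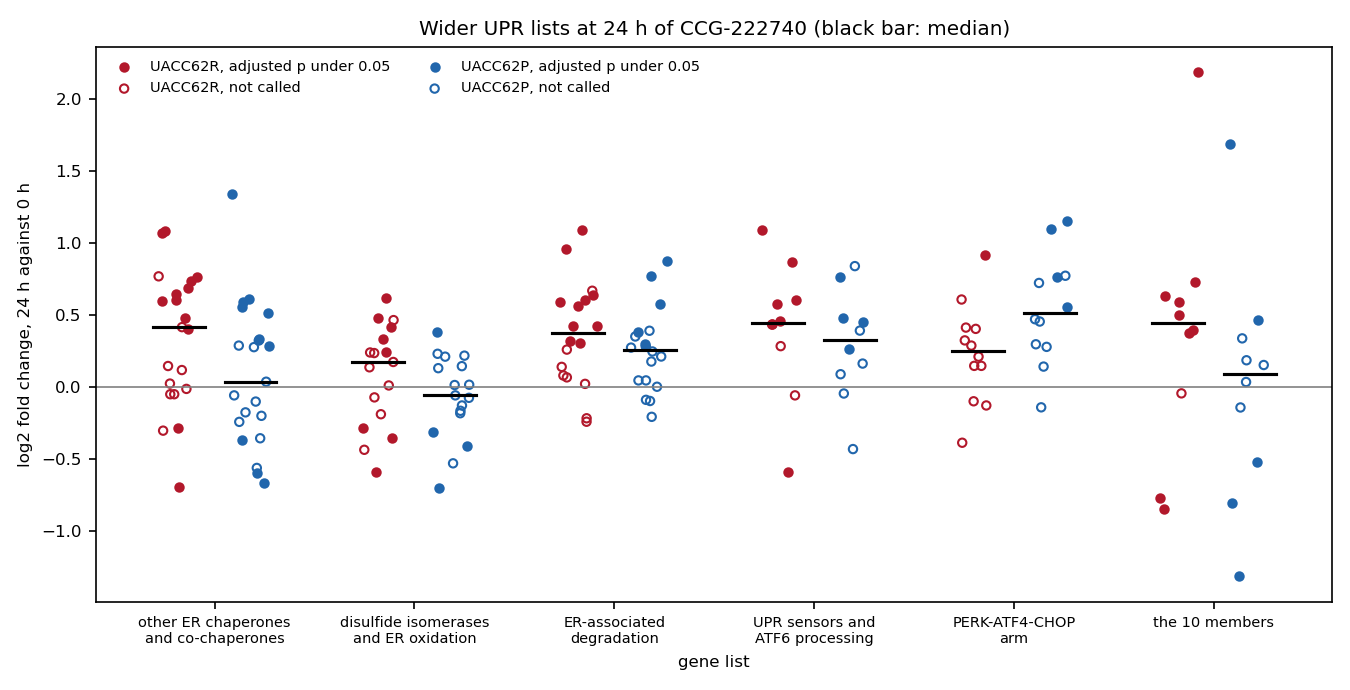
Log2 fold change at 24 h against 0 h for every tested gene of 5 wider lists and for the 10 genes, UACC62R in red left of UACC62P in blue, filled where called at an adjusted p under 0.05, with a black bar at the median. The median of the other ER chaperones is 0.42 in UACC62R and 0.04 in UACC62P, and that of the PERK-ATF4-CHOP arm is 0.25 in UACC62R and 0.51 in UACC62P.

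Before treatment, the wider lists held genes on either side of 0 in UACC62R against UACC62P. EDEM1, a lectin of ER-associated degradation, averaged 252.7 CPM in UACC62R and 105.2 CPM in UACC62P, a log2 fold change of 1.26 ± 0.10, while SEL1L averaged 120.6 CPM in UACC62R and 214.2 CPM in UACC62P (-0.83 ± 0.09). CREB3L1, another ATF6-like factor, averaged 25.8 CPM in UACC62R and 0.21 CPM in UACC62P. DDIT3, which encodes CHOP, averaged 10.3 CPM in UACC62R and 28.0 CPM in UACC62P (-1.44 ± 0.13), and TRIB3 54.8 CPM in UACC62R and 155.6 CPM in UACC62P (-1.51 ± 0.25).

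The genes whose levels ran most like a member were found by Pearson's r of log2 CPM, centred on each line's mean, over 15 libraries and 10422 genes. These values are descriptions: the libraries share their groups, lines and scaling. For DNAJC3 they were TXNDC11 (r = 0.97), MOGS (0.96), SGSH (0.87), SLC38A10 (0.87) and MINPP1 (0.87). For DNAJB9 they were ALG2 (r = 0.98), EIF2AK3 (0.97), SARAF (0.97), SLC33A1 (0.96) and GOLPH3L (0.96). PDIA4 ran most like LRP11, SLC39A10, DHX30, ANGPTL2 and C5orf15 (r = 0.95 to 0.96), and HSPA5 like C10orf90, GOLGA5, WIPI1, BTN3A2 and MAGED1 (r = 0.94 to 0.96). TXNDC11, a thioredoxin-like protein, averaged 51.5 CPM at 6 h and 75.8 CPM at 0 h in UACC62R, and 50.5 CPM at 6 h and 73.3 CPM at 0 h in UACC62P. Its log2 fold change was -0.56 ± 0.08 in UACC62R and -0.54 ± 0.08 in UACC62P, both called. Between DNAJB9 and DNAJC3 themselves r was -0.49, and between DNAJB9 and XBP1 0.89.

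Some counts could hold reads of a neighbour, since the sources used here do not give the strand setting of the counting. In GENCODE v29, exons of DNAJB9 share 183 bases with THAP5 and 99 bases with PNPLA8 on the opposite strand, exons of CRELD2 share 168 bases with ALG12, and those of HSP90B1 share 121 bases with C12orf73. At 24 h in UACC62R, THAP5 had a log2 fold change of 0.46 and PNPLA8 of 0.50, both called, beside 2.19 for DNAJB9. ALG12 had 0.25 there, not called, beside 0.63 for CRELD2. The part of these overlaps in the values was not tested. The pseudogenes HSPA5P1 and XBP1P1 drew 0.0489% and 0.0849% as many reads as HSPA5 and XBP1.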

How the data were processed

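Poly(A) RNA from 16 libraries (8 groups of 2) was sequenced. The authors deposited raw read counts per gene for each library, with no normalization. The submitters' processing notes name hg19 as the genome build and list HTSeq 0.6.1, HISAT2 2.1.0, Trimmomatic 0.33, FastQC 0.11.5 and bcl2fastq 2.19.0. Reads mapped to several places or genes were outside these counts, and the summary lines stayed out of library sizes. Of all reads, 6.12 to 17.8% were not aligned.

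The 10 genes, the gene lists and the tests were chosen with earlier results of these data known. Counts were scaled by TMM, filtered by filterByExpr and tested by edgeR 4.0.16 (limma 3.58.1, R 4.3.3) in 1 quasi-likelihood fit with a coefficient per group over 15 libraries (20280 genes, 7 residual degrees of freedom), without the library labelled UACC62P 2 h replicate 1. That library's CPM come from a scaling of all 16, as do the values set beside it. P-values were Benjamini-Hochberg adjusted over all genes within each of 12 comparisons, not across them. Standard errors were taken as the absolute log2 fold change over the root of the F statistic. The fit was also run on simulated counts with the same dispersion for every gene and no pairing of replicates. These data differ in that, so the run does not give the error rate of the calls here. Exon lengths and overlaps came from GENCODE v29 and promoters from RefSeq (GRCh38.p14); no coordinate was converted.

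All 10 genes are named. From each wider list the rule took up to 3 called genes with the largest change, or the one with the smallest p. The genes most like DNAJC3, DNAJB9, PDIA4 and HSPA5 were the top 5 by r outside the 10 genes. Same-numbered libraries deviated together in 21 of 21 pairs of groups (r = 0.17 to 0.72 over 8273 genes). That they are paired is a reading of the data that no label gives. The main fit, its standard errors and its calls ignore this pairing. It enters only in the alternative with the replicate number as a block. Alternatives were all 16 libraries, the replicate block, RLE scaling, library size alone, no filter on low counts, DESeq2 1.42.0 and leaving out each replicate.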

Additional observations from a re-analysis of the deposited data

Results flagged for a closer look

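The response of CRELD2 at 24 h differed between the lines by the test of the difference itself: its log2 fold change was larger in UACC62R than in UACC62P by 0.595 ± 0.11 (edgeR, adjusted p = 0.0299). Both UACC62R libraries at 24 h lay above both at 0 h, and the UACC62P groups overlapped. Leaving out 1 library at a time gave 0.505 to 0.68, and the call was kept only without UACC62P 0 h replicate 2 among the 8 libraries of this difference. Over the other alternatives the value was 0.586 to 0.61, and the adjusted p ranged from 0.000392 with DESeq2 to 1.0 with all 16 libraries.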

How the results depend on the processing

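No called value changed sign under any alternative that was run. Under RLE scaling each of the 54 values of single genes called in any fit stayed on its side of the threshold. With all 16 libraries the counts of called genes among the 10 moved to 0 for UACC62R at 2 h and 6 h, 5 at 24 h and 1 for 24 h against 6 h, to 0 and 2 for UACC62P at 6 h and 24 h, and to 0 for the difference of response at 24 h; the common dispersion was then 0.0622, against 0.00985 in 15 libraries. With the replicate block, which follows the pairing seen in the data, 4 genes were called for UACC62R at 6 h, 1 for UACC62P at 2 h, 3 for UACC62P at 24 h against 6 h and 5 for the difference at 24 h, and no call was lost. With no filter on low counts the counts were 2 for UACC62R at 2 h, 4 for UACC62R at 6 h, 2 for UACC62P at 2 h, 1 for UACC62P at 24 h against 6 h, 1 for the difference at 6 h and 4 at 24 h. DESeq2 called 4 for UACC62R at 6 h and 1 for UACC62P at 2 h. Calls over all genes moved as well. For UACC62R at 6 h they were 135 in the main fit, 566 with the block and 451 with no filter. DESeq2 gave 251 there and all 16 libraries 5. For UACC62P at 24 h against 6 h they were 149 in the main fit and 1025 with the block. For the difference at 24 h they were 114 in the main fit, 822 with the block and 0 with all 16 libraries. The cause was not tested. Leaving out 1 library at a time gave 1 to 2 calls for UACC62R at 6 h, 7 to 9 at 24 h and 8 to 9 for 24 h against 6 h, 3 to 4 for UACC62P at 6 h and at 24 h, 0 to 1 for UACC62P at 24 h against 6 h, 5 to 6 between the lines at 0 h and 0 to 1 for the difference at 24 h. DNAJB9 was called for UACC62P at 24 h against 6 h without UACC62P 6 h replicate 2, MANF was not called for UACC62R at 6 h without UACC62R 0 h replicate 1 or either 6 h library, and HSP90B1 was not called for UACC62R at 24 h against 6 h without 6 h replicate 1 or 24 h replicate 2.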
